A study of Mus musculus with 8 samples.

Results

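The genes described here are 10 members of the route by which endosomal Toll-like receptors (TLR) detect nucleic acids: Tlr7, Tlr9, Unc93b1, Myd88, Irak4, Traf6, Traf3, Irf5, Irf7 and Slc15a4. They are 10 of 36095 features on the array and were chosen by name, with earlier results of these data known. Together they had 14 probes, and a gene with several probes was read from the probe with the highest mean log2 signal over the 8 arrays, its main probe. All 14 probes were well above background on all 8 arrays, so every member passed the filter on dim probes.

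Plasmacytoid dendritic cells (pDC) were grown from bone marrow precursors of female BALB/c mice in culture with mFlt3-L, the Flt3 ligand. They were sorted magnetically and by flow cytometry into Sca-1+ pDC (4 samples) and Sca-1- pDC (4 samples). The labels name no stimulus for either group and give no age. Each sample was hybridised to its own single-colour Agilent array. The groups are therefore fractions of cultured cells told apart by a surface protein, not by an allele or a treatment. The labels do not tell whether replicates stem from different cultures or animals. The p-values below therefore weigh differences against the spread among these arrays, which may be technical.

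pDC are the dendritic cells that release large amounts of type I interferon when endosomal TLR meet viral nucleic acid. Tlr7 binds single-stranded RNA and Tlr9 binds unmethylated CpG DNA, and both depend on the chaperone Unc93b1 to reach endosomes and lysosomes. The adaptor Myd88 then gathers the kinase Irak4 and the ubiquitin ligases Traf6 and Traf3, after which the transcription factor Irf7 switches on interferon alpha genes and Irf5 inflammatory cytokine genes. Slc15a4 is a proton-coupled amino acid and peptide transporter of the endolysosome that pDC need for these responses in mice. The series asks whether Sca-1 marks stages of pDC development that differ in the endosomal TLR9 response.

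Each member's main probe lay on one mm9 chromosome, as the scanner files give it. The positions were chrX:163742863-163742922 for Tlr7, chr9:106128979-106129038 for Tlr9, chr19:3949081-3949140 for Unc93b1, chr5:128076053-128076112 for Slc15a4 and chr9:119245322-119245381 for Myd88. Those for Traf6, Traf3 and Irf5 were chr2:101519206-101519265, chr12:112505252-112505311 and chr6:29486901-29486960. The main probes of Irf7 and Irak4 are 60 bases long but cover 351 and 728 bases of the genome, so that each joins separate genomic stretches of its gene. Whether the other probes lie in coding exons or untranslated regions was not analysed here. The 2 probes that join such stretches are shown because they read spliced RNA of the gene with the largest difference and of the first kinase of the route.
Irf7, chr7:148450664-148451014, minus strand: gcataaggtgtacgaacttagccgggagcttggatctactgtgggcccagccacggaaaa
Irak4, chr15:94384447-94385174, plus strand: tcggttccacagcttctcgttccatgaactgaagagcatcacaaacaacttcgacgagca

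The promoters of Myd88, Slc15a4 and Irf7 are shown because interferon regulatory factors, the family of Irf5 and Irf7, bind the core AANNGAAA, which was searched on both strands. The RefSeq table (build GRCm38.p6) held a window for 8 of the 10 members, running 250 bases before to 50 bases after the start. The 250 bases before the start are printed, with a match in capitals. Tlr7 and Unc93b1 had no entry there.
Myd88, chr9:119340019-119340268, minus strand: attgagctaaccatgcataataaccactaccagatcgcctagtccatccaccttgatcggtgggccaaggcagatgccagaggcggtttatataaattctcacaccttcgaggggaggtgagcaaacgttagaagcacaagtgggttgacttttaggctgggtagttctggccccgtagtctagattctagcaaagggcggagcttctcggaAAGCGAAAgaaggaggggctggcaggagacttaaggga
Slc15a4, chr5:127617393-127617642, minus strand: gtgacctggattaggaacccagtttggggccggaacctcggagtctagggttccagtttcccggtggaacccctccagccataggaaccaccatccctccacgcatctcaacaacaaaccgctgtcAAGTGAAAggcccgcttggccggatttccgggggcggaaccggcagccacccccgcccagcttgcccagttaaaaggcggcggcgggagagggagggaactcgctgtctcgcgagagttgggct
Irf7, chr7:141266425-141266674, minus strand: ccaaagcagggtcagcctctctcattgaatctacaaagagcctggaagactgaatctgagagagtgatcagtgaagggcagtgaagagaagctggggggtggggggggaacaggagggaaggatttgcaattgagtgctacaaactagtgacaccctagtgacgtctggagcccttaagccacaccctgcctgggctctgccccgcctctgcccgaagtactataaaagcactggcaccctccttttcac
Of the 8 windows, 2 held the core: it begins 38 bases before the start in Myd88 and 124 bases before it in Slc15a4. The core was found in 23.9% of all 32851 promoter windows of the same length, so that its share among the members was near that of all genes. A match is a run of letters, not a measured binding site, and neither gene with a match passed the test between the groups.

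The arrays can be read in pairs. Arrays of equal replicate number shared 1 slide, as the headers of the files record, with Sca-1- at array position 1 and Sca-1+ at position 2 on each of the 4 slides, so that position and group cannot be told apart. The share of spots well above background was 45.9% to 54.9%, and the 75th percentile of processed signal lay between 152 and 434 per array. The highest 2 of these percentiles, 396 and 434, were those of slide 4, which was also extracted with another version of the scanner protocol. Ly6a, the gene of Sca-1, was 25.1-fold higher in the Sca-1+ samples, which checks the labels only. All 15 markers fixed for pDC identity, among them Siglech, Bst2 and Tcf4, were well above background on all 8 arrays.

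Irf7 and Tlr7 were the 2 members that differed between Sca-1+ and Sca-1- pDC, both higher in Sca-1+ cells, in the fit with each slide as a block but not in the unpaired fit. Irf7 was 1.92-fold and Tlr7 1.49-fold higher. For the other 8 members, Tlr9 among them, the 95% confidence interval of the difference held 0 in both fits. Levels are log2 processed signal relative to the 75th percentile of the array, and they do not compare one probe with another. In bulk RNA, a larger share of cells that hold a transcript and more transcript per cell cannot be told apart.

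In the unpaired limma fit over 19818 genes, 0 of the 10 members passed a Benjamini-Hochberg adjusted p of 0.05, where 1.71% of all tested genes did (0.126% higher and 1.58% lower). At an unadjusted p under 0.05 there were 2 members, Irf7 and Tlr7, against 8.96% of all genes. With the slide as a block, the same 2 of 10 passed, both higher, where 6.22% of all genes passed, 2.10% as higher and 4.12% as lower. The groups did not overlap in 1 member, Irf7, and 1.91% of all genes had non-overlapping groups with Sca-1+ higher. Sca-1+ was higher on all 4 slides in 4 members (Tlr7, Tlr9, Irf7 and Slc15a4), or in 18.4% of all genes.

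All 10 members had a positive mean difference, where 55.4% of all tested genes did. The median difference was 0.13 over the members and 0.03 over all tested genes. Within slides 1 to 4 the members' median was 0.26, 0.15, 0.08 and 0.10, against 0.07, -0.04, 0.02 and 0.01 over all genes. The members are few and were not drawn at random, so these medians describe them and carry no test.

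**Figure D1:**
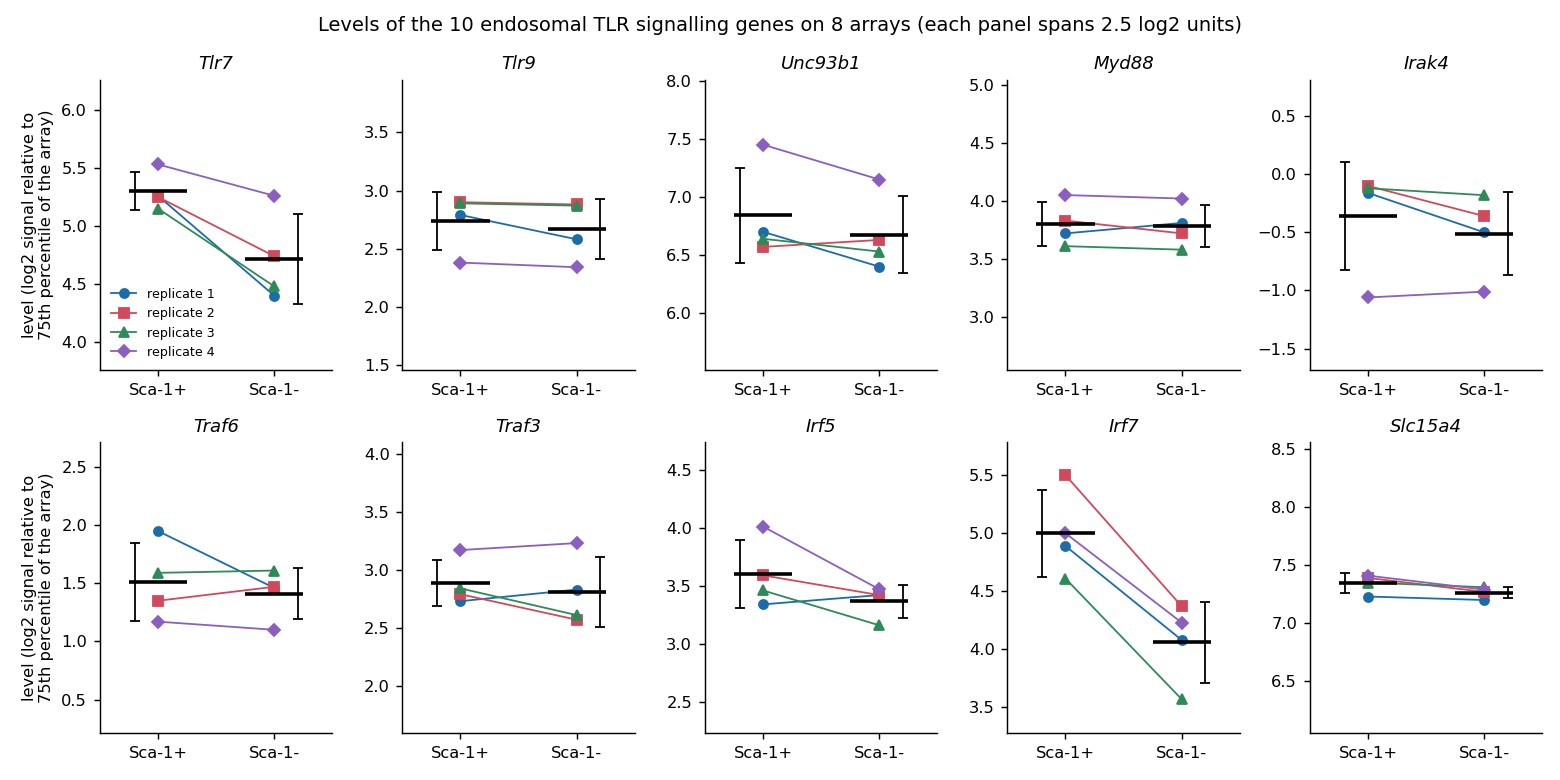
Level (log2 signal relative to the 75th percentile of the array) of each member's main probe in Sca-1+ and Sca-1- pDC, with a line joining the arrays of 1 replicate number (1 slide), a black bar for the mean and an error bar for the SD of 4 samples. Each panel spans the same height, and all 4 Irf7 lines fall to the right with groups that do not overlap, while in Slc15a4 the 8 values lie between 7.20 and 7.41.

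Tlr7, the receptor for single-stranded RNA, was read at levels of 5.26, 5.25, 5.15 and 5.53 in Sca-1+ replicates 1 to 4, against 4.40, 4.74, 4.48 and 5.26 in Sca-1- replicates 1 to 4. The groups overlapped only through Sca-1- replicate 4, whose level equalled that of Sca-1+ replicate 1 at this precision. The means were 5.30 ± 0.16 in Sca-1+ and 4.72 ± 0.39 in Sca-1- samples (SD, n = 4 each). The difference was 0.58 ± 0.21 (SE), with a 95% confidence interval of 0.11 to 1.05 unpaired and 0.30 to 0.86 with the slide as a block. Within slides 1 to 4 it was 0.86, 0.52, 0.67 and 0.27, so that Tlr7 was higher in Sca-1+ cells on each slide. limma's adjusted p was 0.370 unpaired and 0.0460 blocked, and 3.08% of all tested genes had a higher difference. The blocked call ended when replicate 1, 2 or 3 was left out, with limma adjusted p-values of 0.130, 0.113 and 0.194, and when the probes of a gene were averaged (adjusted p = 0.0545).

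The other 2 Tlr7 probes were also higher in Sca-1+ cells on every slide. The probe A_55_P2129047, at chrX:163743146-163743205, differed by 0.57, with levels of 4.15, 4.70, 4.48 and 5.53 in Sca-1+ samples, against 3.83, 3.72, 3.89 and 5.16 in Sca-1- samples. On it both arrays of slide 4 were above all others. The dim probe A_55_P2129046, at chrX:163747214-163747273, differed by 0.76, with 42.8 to 67.0 units of processed signal in Sca-1+ samples and 20.2 to 63.1 units in Sca-1- samples. When each of 26988 probes was tested on its own in the blocked fit, limma's adjusted p was 0.0538 for the main probe, 0.0753 and 0.188 for the others, and 0.00780 for that of Irf7.

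Tlr9, the receptor for CpG DNA that the series is about, had levels of 2.79, 2.90, 2.89 and 2.38 in Sca-1+ replicates 1 to 4, against 2.58, 2.88, 2.87 and 2.34 in Sca-1- replicates 1 to 4. On each slide the 2 groups lay side by side, 0.21 apart on slide 1 and 0.02 to 0.04 apart on slides 2 to 4. The mean difference was 0.07, and its 95% interval in the blocked fit, -0.12 to 0.26, corresponds to 0.922- to 1.20-fold. limma's adjusted p was 1.00 unpaired and 0.606 blocked. With 4 slides, a difference of Tlr9 within that interval is not excluded.

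Unc93b1, the chaperone that carries Tlr7, Tlr9 and other receptors out of the endoplasmic reticulum, had levels of 6.70, 6.57, 6.64 and 7.45 in Sca-1+ samples, against 6.40, 6.63, 6.53 and 7.15 in Sca-1- samples. Both samples of slide 4 lay above the other 6, and the groups overlapped. The difference of 0.17 passed in neither fit (limma adjusted p = 1.00 unpaired and 0.343 blocked). Slc15a4, the endolysosomal transporter, had 7.23, 7.39, 7.35 and 7.41 in Sca-1+ samples and 7.20, 7.27, 7.31 and 7.29 in Sca-1- samples, a difference of 0.08. Its SD, 0.08 in Sca-1+ and 0.05 in Sca-1- samples, was the smallest of the 10 members in each group. The Slc15a4 interval in the blocked fit ran from 0.935- to 1.20-fold (adjusted p = 0.534).

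Myd88, the adaptor to which Tlr7 and Tlr9 both couple, was spotted 10 times on each array, and its spots had an SD of 0.05 to 0.15 (log2) per array. Its levels were 3.72, 3.83, 3.61 and 4.05 in Sca-1+ samples, against 3.81, 3.72, 3.58 and 4.02 in Sca-1- samples. The difference of 0.02 was the smallest of the 10, below the SD between spots of 1 array, and took both signs across slides (-0.09, 0.11, 0.02 and 0.03). Its blocked interval was 0.888- to 1.15-fold (limma adjusted p = 0.909).

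Irak4, the kinase that Myd88 recruits first, had levels of -0.16, -0.10, -0.12 and -1.06 in Sca-1+ samples, against -0.50, -0.36, -0.18 and -1.01 in Sca-1- samples. Slide 4 was low in both groups, and within slides the differences were 0.34, 0.25, 0.06 and -0.04. The mean difference was 0.15 (blocked limma adjusted p = 0.379). Its second probe, A_52_P67440, differed by 0.27 and was positive on all 4 slides.

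Traf6, the ubiquitin ligase that links Irak kinases to NF-kappa-B and MAP kinase activation, differed by 0.10 (blocked limma adjusted p = 0.646). The levels were 1.95, 1.35, 1.59 and 1.17 in Sca-1+ samples, against 1.46, 1.47, 1.61 and 1.10 in Sca-1- samples. Sca-1+ replicate 1 was the highest of the 8, and without it the difference was -0.04. The second Traf6 probe, A_52_P510215, differed by 0.06. Traf3, the ligase on the branch towards Irf7 and interferon, had 2.73, 2.79, 2.84 and 3.17 in Sca-1+ samples, against 2.83, 2.57, 2.61 and 3.23 in Sca-1- samples. Traf3 was higher in Sca-1+ cells on slides 2 and 3 and lower on slides 1 and 4, with a mean difference of 0.07 (blocked limma adjusted p = 0.683).

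**Figure D2:**
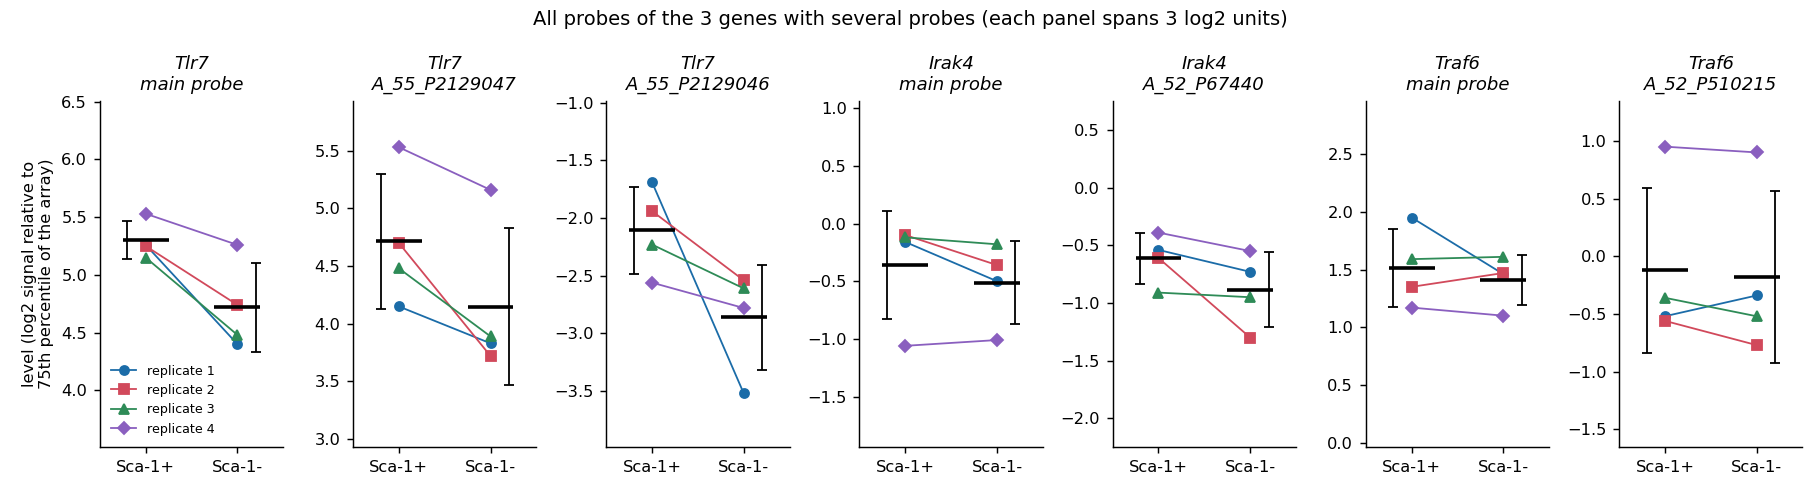
Level (log2 signal relative to the 75th percentile of the array) of every probe of Tlr7, Irak4 and Traf6 in Sca-1+ and Sca-1- pDC, drawn by replicate number with the mean and SD of 4 samples. The 3 Tlr7 probes have 4 lines each that fall to the right, and the second Traf6 probe has both slide 4 values, 0.95 and 0.90, above the other 6.

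Irf7, the regulator that drives interferon alpha transcription, had the largest difference of the members. Its levels were 4.89, 5.50, 4.61 and 5.0 in Sca-1+ replicates 1 to 4, against 4.08, 4.37, 3.57 and 4.23 in Sca-1- replicates 1 to 4. The lowest Sca-1+ sample was above the highest Sca-1- sample. Unscaled processed signals were 4940, 8730, 4880 and 12700 units in Sca-1+ samples and 3920, 3150, 2470 and 8130 units in Sca-1- samples, higher in Sca-1+ on each slide. The means were 5.0 ± 0.37 in Sca-1+ and 4.06 ± 0.35 in Sca-1- samples (SD, n = 4 each).

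The Irf7 difference was 0.94 ± 0.24 (SE), with a 95% interval of 1.31- to 2.81-fold unpaired and 1.63- to 2.26-fold with the slide as a block. Within slides 1 to 4 it was 0.82, 1.14, 1.04 and 0.77. limma's adjusted p was 0.143 unpaired and 0.00606 blocked, and 0.575% of all tested genes had a higher difference. Leaving out replicate 3 ended the blocked call (adjusted p = 0.0580, difference 0.91), and leaving out any other replicate number did not.

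Irf5, which drives inflammatory cytokine genes behind the same receptors, had levels of 3.34, 3.59, 3.46 and 4.01 in Sca-1+ samples, against 3.42, 3.42, 3.16 and 3.47 in Sca-1- samples. The groups overlapped, and the differences within slides were -0.07, 0.17, 0.30 and 0.54. The mean of 0.23 passed in neither fit (limma adjusted p = 0.913 unpaired and 0.289 blocked), and it was 0.10 without Sca-1+ replicate 4. Its blocked interval, 0.963- to 1.44-fold, ended below the 1.63-fold at which that of Irf7 began. The unpaired intervals overlapped, at 0.896- to 1.54-fold for Irf5 and 1.31- to 2.81-fold for Irf7. The difference between both genes' changes was not tested.

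**Figure D3:**
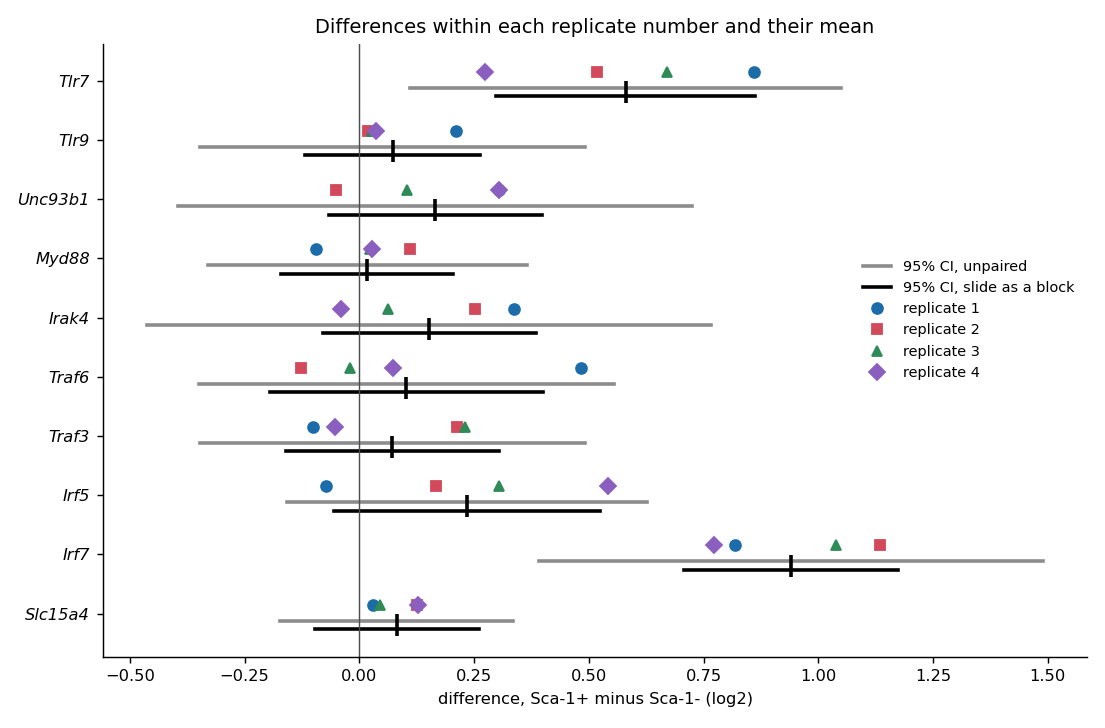
Difference in level, Sca-1+ minus Sca-1- (log2), of each member within replicates 1 to 4 (coloured symbols, drawn over one another where values coincide), with the mean (black tick) and its 95% confidence interval unpaired (grey) and with the slide as a block (black). The blocked intervals of Tlr7 and Irf7 lie above 0 and the other 8 cross it.

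Levels moved more between slides than between the groups in most members. The mean of slide 4 differed from that of slides 1 to 3 by more than the group difference in 7 of 10 members. The same count was not made over all genes, so it does not set the members apart from them. Unc93b1 was 0.72 higher on slide 4, Traf3 0.47, Irf5 0.35 and Myd88 0.32. Irak4, Tlr9 and Traf6 were lower there, by differences of -0.80, -0.46 and -0.43. For Tlr7 the shift, 0.52, was just under the group difference, for Slc15a4 it was 0.06, and for Irf7 it was 0.11 beside a group difference of 0.94.

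The genes whose levels ran most like those of 3 members were sought among genes well above background on all 8 arrays. Clone and locus names were left out, which kept 11141 genes. The search is a description with no test, since the arrays share slides and depth. For Irf7 the most alike were Ifi44 (Pearson's r 0.976), Agpat3 (0.972) and Ifi204 (0.967). Ifi44 and Ifi204 are interferon-inducible genes. Over the 6 arrays of slides 1 to 3 the r values were 0.987, 0.978 and 0.985. Genes were picked over all 8 arrays, which include those of slides 1 to 3, so an r over these slides is no separate check. For Tlr7 the most alike were Tcstv3 (0.994), Fbxl13 (0.992) and Dbp (0.988), and for Tlr9 Krtap10-10 (0.994), Epn3 (0.993) and Elane (0.992), with 0.964 to 0.992 over slides 1 to 3 for these 6.

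Around the members, 6 lists held 132 other genes of the TLR route, of which 128 were on the array and 113 were tested. In the unpaired limma fit 0 of the 113 were higher and 2 were lower in Sca-1+ pDC, beside 0.126% and 1.58% of all tested genes. In that fit 9 of the 113 had an unadjusted p under 0.05, beside 8.96% of all tested genes. With the slide as a block, 6 were higher and 3 lower, a share of 7.96% beside 6.22% of all tested genes. Their median difference was 0.07. The genes of these 6 lists called in the blocked fit, other than Spp1 and Il12a, did not pass unpaired. Spp1 met the filter on dim probes through its Sca-1- arrays alone.

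Among 21 tested genes for receptor folding, trafficking, cleavage and ligand cofactors, 4 were higher and 1 lower in the blocked fit. That is a share of 23.8% beside 6.22% of all tested genes. The list was chosen with earlier results of these data known, so its share carries no test. Rab7b, a late endosomal small GTPase, rose by 1.30 (limma blocked adjusted p = 0.0206), and its groups did not overlap. Cd36, a scavenger receptor, rose by 0.81 (adjusted p = 0.0188). Ctsl, the gene of the endosomal protease cathepsin L, and Slc15a3, the closest relative of Slc15a4 among these genes, each rose by 0.44 (adjusted p = 0.0404 and 0.0301). Hmgb1, a chromatin protein that can carry DNA to Tlr9, fell by 0.58 on the log2 scale (adjusted p = 0.0400). Without replicate 3 none of these 5 passed in the blocked fit (limma adjusted p 0.101 to 0.181). Without replicate 1 or 2 Cd36 alone passed, without replicate 4 Ctsl and Slc15a3 did not (0.0683 and 0.0928), and without the Sca-1+ array of replicate 4 the Slc15a3 difference was 0.26. The mean over probes gave a blocked adjusted p of 0.0506 for Hmgb1.

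Among the other TLR genes, 6 of 10 were tested and 0 passed in either fit. Tlr3, Tlr5 and Tlr8 were well above background on no array. The 3 with the smallest unpaired p were Tlr12, Tlr6 and Tlr2, at differences of 0.30, 0.41 and 0.19. At an unadjusted p under 0.05 there was 1 of the 6 in the unpaired limma fit, Tlr12, beside 8.96% of all tested genes. All 3 were in the blocked one, for which the share over all genes was not computed.

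Of 24 tested adaptors, kinases and ubiquitin ligases, 1 was lower in both fits and none was higher (blocked 4.17%, all tested genes 6.22%). It was Spp1, encoding osteopontin, whose intracellular form is known in mice to act with Myd88 in pDC. Its probe passed the background limit on 0 of 4 Sca-1+ and 4 of 4 Sca-1- arrays, so it met the filter through the Sca-1- samples alone. Its p-values (limma adjusted p = 0.00812 unpaired and 0.00806 blocked) rest on Sca-1+ signals at background and are not support for a difference. On the scanner's processed signal, the Spp1 mean of the Sca-1- samples was 4.69-fold above a floor set for the Sca-1+ samples. That floor is the lowest signal called well above background on each array, or the probe's own where higher. It may not be an upper limit for a probe that failed the call, so the value does not bound the difference. With normexp background correction Spp1 did not pass unpaired, at -0.90 (adjusted p = 0.297), and without replicate 3 its blocked call ended (adjusted p = 0.0585). Tirap, a sorting adaptor, differed by -0.34 and the kinase gene Ikbke by 0.23, and neither passed.

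Of 25 tested NF-kappa-B, MAP kinase and interferon regulatory factors, 0 passed by limma unpaired or blocked. At an unadjusted p under 0.05 there were 0 in the unpaired fit, beside 8.96% of all tested genes. The blocked fit had 4 (Nfkbiz, Relb, Nfkbie and Nfkb1), and its share over all genes was not computed. The smallest unpaired p belonged to the inhibitor-like gene Nfkbiz and to Irf4 and Nfkbie, at 0.47, -0.57 and 0.21. Irf7 was thus the called member of the interferon regulatory factor family, beside Irf5 and 6 listed relatives that did not pass, and whether it differs from them was not tested.

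The products of these receptors were partly below detection, with 15 of 21 genes on the array tested. With the slide as a block 1 was higher and 1 lower, a share of 13.3% beside 6.22% of all tested genes. Ifnb1 and Ifna4 were well above background on no array. Il12a, a subunit of interleukin 12, fell by 1.81 (limma adjusted p = 0.00804 unpaired and 0.0110 blocked), and its probe passed the background limit on 3 of 4 Sca-1+ and 4 of 4 Sca-1- arrays. With normexp background correction the Il12a difference was -0.78 (unpaired adjusted p = 0.0273), and without replicate 3 the blocked call ended (adjusted p = 0.0864). The chemokine gene Ccl4 rose by 0.69 in the blocked fit (adjusted p = 0.0268), and this call ended without any 1 replicate number (adjusted p 0.0664 to 0.103). The Ccl4 difference was 0.42, 0.40 and 1.27 when the Sca-1+ array of replicate 1, 2 or 4 was left out, and 0.14 when the Sca-1- array of replicate 4 was. Ccl3 and Tnf differed by 0.86 and 0.30 without passing in either fit.

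Among 22 tested receptors and regulators that modulate TLR responses in pDC, 1 passed in the blocked fit, or 4.55% beside 6.22% of all genes. It was Lag3, an inhibitory receptor for MHC class II, which rose by 0.73 (limma adjusted p = 0.0250), with groups that did not overlap. The Lag3 call ended without replicate 1, 2 or 3 (adjusted p = 0.0993, 0.0834 and 0.141). Pacsin1, an adaptor needed for pDC interferon output in mice, and Ptprs, an inhibitory phosphatase of pDC, differed by 0.26 and 0.37 without passing.

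**Figure D4:**
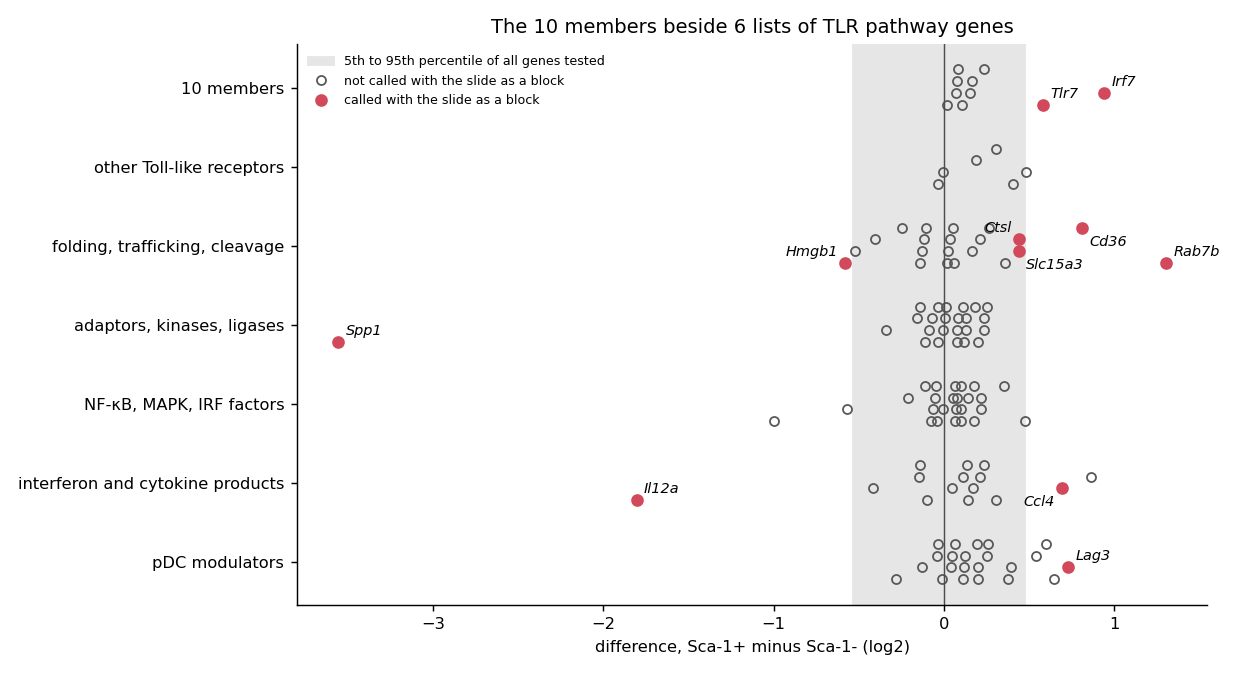
Difference in level, Sca-1+ minus Sca-1- (log2), of the 10 members and of the tested genes of 6 lists of the TLR route, with genes called in the slide-blocked fit filled and named, and a grey band from the 5th to the 95th percentile of all tested genes (-0.53 to 0.48). Tlr7 and Irf7 lie above the band and the other 8 members inside it; the Spp1 point is the measured value of a probe that was not well above background in Sca-1+ cells.

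Other gene groups moved with the sort, and their part in the Tlr7 and Irf7 values was not tested. All 15 cell cycle genes, among them Mki67 and Top2a, were lower in Sca-1+ pDC in both fits, with a median difference of -2.04. The list, 14 of 15 well above background throughout, had a summed linear level of 39.8 to 61.5 in Sca-1+ samples and 144 to 270 in Sca-1- samples. Of 9 tested conventional dendritic cell markers, 0 passed unpaired and 5 blocked, or 55.6% beside 6.22% of all tested genes. Sirpa, Id2 and Itgae were higher and Cd24a and Zbtb46 lower. Of the 11 listed markers, 9 were well above background on all arrays and Xcr1 on none. Their summed level was 111 to 122 in Sca-1+ samples and 111 to 125 in Sca-1- samples. This linear sum is carried by the brightest markers and does not show changes of single ones. The monocyte, macrophage and granulocyte list, 7 of 11 well above background throughout, summed to 179 to 332 in Sca-1+ and 162 to 337 in Sca-1- samples. Of its 8 tested genes Csf1r alone passed in the blocked fit, as lower, or 12.5% beside 6.22% of all tested genes.

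Of 10 B cell markers 5 were well above background throughout and summed to 15.7 to 17.9 in Sca-1+ and 11.5 to 16.1 in Sca-1- samples, and Ms4a1, Pax5 and Igll1 were among those so on no array. T and NK cell markers (3 of 10 throughout) summed to 11.6 to 19.8 in Sca-1+ and 11.1 to 18.8 in Sca-1- samples, with Cd3d, Cd3g, Ncr1, Klrb1c and Eomes on no array. The basophil list (2 of 8 throughout), with Ms4a2, Il4 and Epx on no array, summed to 0.366 to 22.6 in Sca-1+ and 0.403 to 18.8 in Sca-1- samples. The lowest basophil sum of each group was that of slide 4, and the cause was not tested. The erythroid list (1 of 6 throughout), with Klf1 among those on no array, summed to 0.309 to 0.329 in Sca-1+ and 0.233 to 0.901 in Sca-1- samples. No gene of these last 4 lists passed in either limma fit, and those at an unadjusted p under 0.05 were Cd22 in both fits and Cd4 in the blocked one. In the unpaired fit 8.96% of all tested genes had such a p. The pDC markers summed to 2810 to 3410 in Sca-1+ and 2440 to 3210 in Sca-1- samples. Ccr9 was the 1 of 15 that passed in the blocked fit, as higher, a share of 6.67% near the 6.22% of all tested genes.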

How the data were processed

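The deposited scanner files give each spot's processed signal, an intensity on a linear scale, background-corrected by Agilent Feature Extraction 10.7.3.1, per the file headers. The labelling with Cy3 started from 100 ng of RNA, per the labels' protocols. The log2 values of the series deposited by the authors have a column median of 3.90 and correlated at 0.998 to 1.00 with their own arrays. Of them 22 are missing, and the equal quartiles show a quantile step whose details are not given in the sources used here.

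Of 62976 spots per array 59305 were non-control; 105 to 162 outlier spots were left out and 0 were saturated. The log2 signals of a probe's spots were averaged, and the array's 75th percentile over 55681 probes was subtracted. Names were updated by accession (26582 probes) or symbol (3094) and otherwise kept (26005). Each gene was read from its brightest probe and tested where that probe passed the scanner's background limit on 4 or more of the 8 arrays. The test was limma (version 3.58.1, R version 4.3.3), unpaired and two-sided with lmFit and eBayes, with Benjamini-Hochberg adjustment over 19818 genes, after a check on simulated data. Files were read with version 1.17.8 of data.table, and figures drawn with Python 3.11.15, matplotlib 3.10.9, pandas 2.3.3 and numpy 2.4.6.

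Deviations from the group means correlated within replicate numbers 1 to 4 at 0.441, 0.430, 0.640 and 0.892, above the 0.1 set for pairs. Different numbers among 1 to 3 gave 0.121 to 0.536, also above 0.1, so that this limit does not tell pairs apart among them. Replicate 4 with a different number gave -0.725 to -0.39. The slide as a block was an alternative, printed where it changes a call. The members and the 6 pathway and 8 marker lists were chosen with earlier results of these data known. Named genes are the members, every pathway list gene called in either fit, called marker genes other than most of the cell cycle list, the 3 smallest p of each pathway list, the 3 genes most like Tlr7, Tlr9 and Irf7, and Ly6a. The number of arrays limits the precision. Some marker genes are not reported here by name.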

Additional observations from a re-analysis of the deposited data

Results flagged for a closer look

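Among the 28 groups of 4 samples formed by the 14 probes, 4 held a sample far from the other 3 by Dixon's test, where chance gives about 1 in 20. All 4 samples were on slide 4. Unc93b1 had a level of 7.45 in Sca-1+ replicate 4, against 6.57 to 6.70 in the other Sca-1+ samples. The main Irak4 probe was at -1.06 in Sca-1+ replicate 4, against -0.16 to -0.10 in the others. The second Traf6 probe, A_52_P510215, was at 0.95 in Sca-1+ replicate 4, against -0.56 to -0.36. The Tlr7 probe A_55_P2129047 was at 5.16 in Sca-1- replicate 4, against 3.72 to 3.89 in the other Sca-1- samples.

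Probes of 1 gene went opposite ways on slide 4, in both groups together. Set against slides 1 to 3, the mean of slide 4 was 1.44 higher on the second Traf6 probe and -0.43 on the main one. For Irak4 it was 0.37 on the second probe and -0.80 on the main one. The 3 Tlr7 probes gave 0.52 on the main probe, 1.22 on A_55_P2129047 and -0.25 on A_55_P2129046. Within slide 4 the same probes differed between Sca-1+ and Sca-1- by -0.04 to 0.37.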

How the results depend on the processing

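Over 24 alternatives, Irf7, Tlr7, Irf5 and Slc15a4 kept a positive difference. Irf7 ranged from 0.77 to 1.07 (limma adjusted p 0.000886 to 0.701) and passed in 2, and Tlr7 from 0.47 to 0.76 (adjusted p 0.0115 to 1.00) and passed in 4. Irf5 ranged from 0.0971 to 0.337 and Slc15a4 from 0.0593 to 0.129. With the replicate block 1233 genes and 2 members passed, with the random block 2294 and 2, with array weights 1445 and 1 (Tlr7), and with no filter on dim probes 182 genes. Leave-one-out counts were 1 to 879 genes and 0 to 1 member. Single arrays left out gave 163 to 463 genes, and leaving out both arrays of replicates 1, 2, 3 and 4 gave 1, 2, 29 and 879. Without replicate 4, Tlr7 passed (limma adjusted p = 0.0306).

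The blocked fit under other processing was added after seeing the data, as was a percentile over spots (314 genes, 0 members). With the block, normexp gave 2130 genes and 2 members, quantile normalization 1261 and 2, scaling on detected probes 1242 and 2, the deposited log2 values 1244 and 2, and the mean over probes 1095 and 1. The block without replicate 1, 2, 3 or 4 gave 429, 556, 292 and 941 genes, with 1, 1, 0 and 2 members.

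Negative differences arose in 6 members that passed nowhere. Leaving out an array or a replicate number gave -0.0656 to 0.0960 for Myd88, -0.0418 to 0.216 for Traf6, -0.0245 to 0.210 for Traf3, -0.0383 to 0.323 for Unc93b1, -0.0362 to 0.195 for Tlr9 and -0.0150 to 0.385 for Irak4. Myd88 was -0.0211 with array weights and -0.0141 with the block without replicate 2, and Traf6 -0.0248 with the block without replicate 1. Without both arrays of replicate 1, 2 or 3, Spp1 and Il12a did not pass unpaired (limma adjusted p 0.0764 to 0.142 for Spp1 and 0.0840 to 0.127 for Il12a), and without replicate 3 neither passed blocked. No scaling moved the median of all genes, 0.03, by over 0.1. The causes were not tested.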
